A study of Mus musculus with 2 samples.

Results

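Mir335, Mir675, Mir483, Mir296 and Mir298 are the microRNA (miRNA) genes of the imprinted Mest, H19, Igf2 and Gnas loci. They were chosen by gene symbol, through the annotation GENCODE M21, from the 2202 miRNA genes listed for each library, and all 5 members were found. Small RNA (under 30 nucleotides) was sequenced from hearts of male mice of B6CASTF1/J, a first-generation cross of the strains C57BL/6J and CAST. Age was 25 days by the age label, while a sample description gives months as the unit. Both libraries, replicate 1 and replicate 2, belong to 1 group with no treatment named, so the labels define no contrast. They carry separate animal numbers but the same donor identifier. If they are not separate animals, the spread between them is technical.

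At an imprinted locus, the copy inherited from 1 parent is silenced by marks set in the germ line, so that the other copy supplies most of the RNA. Mest, Igf2 and Nespas are expressed from the paternal copy and H19 from the maternal one. Igf2 is a fetal growth factor, H19 is an abundant long noncoding RNA of the embryo that declines after birth, and Nespas is a noncoding RNA antisense to Nesp transcripts of Gnas. A miRNA is cut from a hairpin in such a transcript, and either arm of the hairpin (5p or 3p) can be loaded into the silencing complex, where the seed at bases 2 to 8 pairs with target mRNAs. The counts hold no allele information, so parental origin was not measured, and they add both arms of a hairpin together.

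The mature sequences show what each gene can supply to the heart, since its seed sets which mRNAs are recognised. They were taken from RefSeq (GRCm38.p6, the build that mm10 names), which matched 5 of 5 members, and capitals mark the seed.
miR-335-5p: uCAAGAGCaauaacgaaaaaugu
miR-335-3p: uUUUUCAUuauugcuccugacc
miR-675-5p: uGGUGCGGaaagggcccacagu
miR-675-3p: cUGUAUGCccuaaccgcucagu
miR-483-5p: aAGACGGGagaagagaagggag
miR-483-3p: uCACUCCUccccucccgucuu
miR-296-5p: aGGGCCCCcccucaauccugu
miR-296-3p: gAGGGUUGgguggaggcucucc
miR-298-5p: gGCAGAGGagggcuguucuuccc
miR-298-3p: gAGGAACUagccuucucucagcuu

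The 10 arms carry 10 different seeds, and no seed was found in a miRNA of another gene among the 1738 mature sequences of the RefSeq table. Between arms of different members, the longest shared run was 7 bases, between miR-675-5p and miR-296-5p. No member's hairpin shared a run of 20, 18 or 16 bases, on either strand, with any other listed miRNA gene, so none of these counts is split with an annotated copy. Copies outside annotated miRNA genes were not searched.

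The members are also unlike in base composition. The GC content of the hairpin was 42.9% for Mir335, 53.7% for Mir298, 58.9% for Mir483, 63.1% for Mir675 and 63.3% for Mir296, against a median of 51.4% over 356 detected hairpins. miR-335-5p, at 30.4% GC, has no 2 adjacent bases that are both G or both C, whereas miR-296-5p, at 66.7% GC, holds a run of 7 C that begins inside its seed. RNAfold gave the Mir675 hairpin a predicted folding energy of -0.67 kcal/mol per base. That was the lowest of the members, and 7 detected hairpins lay lower. Mir296 was at -0.55, Mir298 at -0.52, Mir483 at -0.46 and Mir335 at -0.45 kcal/mol per base, where the median of detected hairpins was -0.44.

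Coordinates are those of mm10. Mir335 lies on chromosome 6 from 30741299 to 30741396 on the plus strand, in an intron of all 7 Mest transcripts that span it. Mir675 is on the minus strand of chromosome 7, at 142577064 to 142577147, inside an exon of 3 H19 transcripts and an intron of 1. In the transcript drawn in the map of the loci that is exon 1. Mir483 lies upstream of it on the same strand, from 142654924 to 142654996, in an intron of 7 Igf2 transcripts and of 1 transcript of Gm49394, and 77776 bases separate it from Mir675.

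Mir298 (chromosome 2, 174267504 to 174267585) and Mir296 (174267047 to 174267125) lie on the minus strand with 378 bases between them, Mir298 first in the direction of transcription. Neither lies inside an annotated transcript of another gene. The annotated end of Nespas, on the same strand, is 13651 bases upstream of Mir298 and 14111 bases upstream of Mir296, and the nearest end of Gnas, on the opposite strand, is 16734 bases from Mir298. The word host therefore holds by this annotation for Mir335, Mir675 and Mir483 only. No other listed miRNA gene lies within 10 kb of any member.

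**Figure D1:**
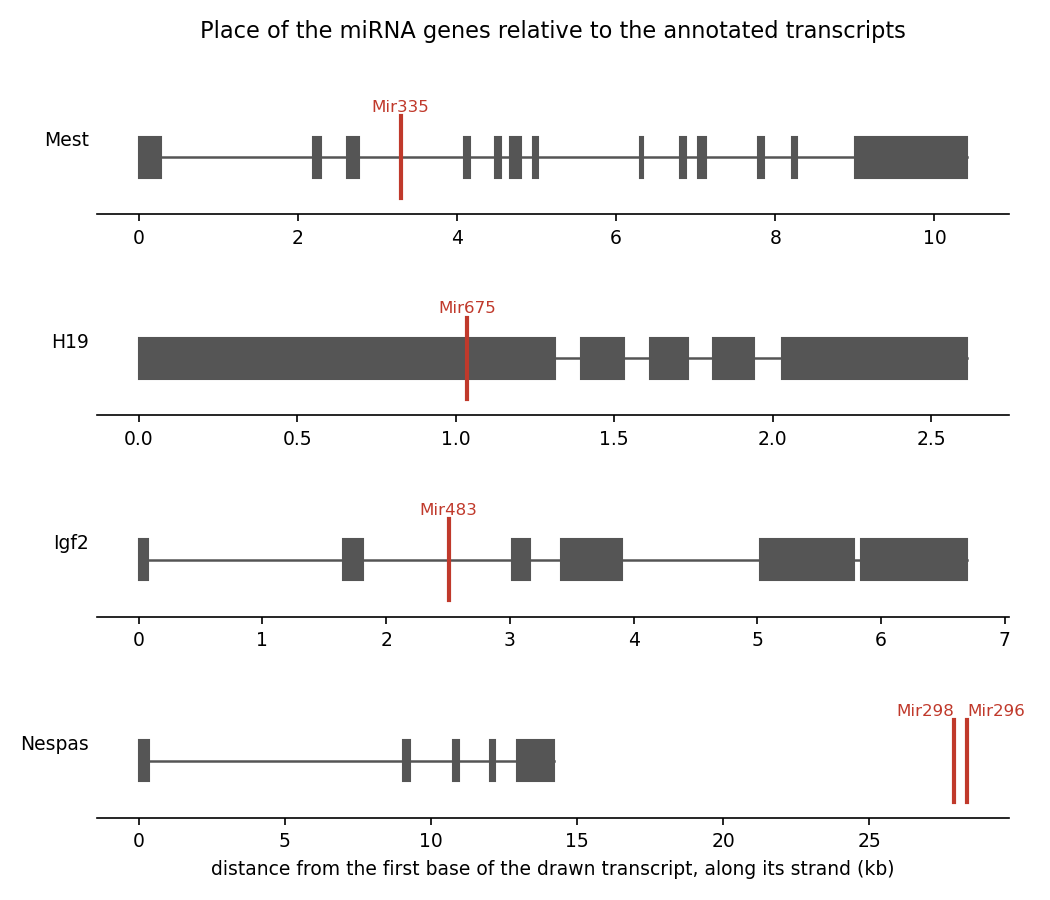
Exons (boxes) and introns (lines) of 1 annotated transcript each of Mest, H19, Igf2 and Nespas, with the miRNA genes as red marks; the horizontal axis is the distance in kb from the first base of that transcript along its strand, and each panel has its own scale. Mir335 and Mir483 sit in introns, Mir675 in an exon, and Mir298 and Mir296 beyond the annotated end of Nespas.

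The hearts held 1 abundant member, 3 at lower levels and 1 near the limit of detection. Levels are read counts on the strand of the gene, scaled to a library total of 1000000 assigned reads (CPM). A count is 1 small RNA read assigned to the gene, and whether each read matches a mature arm was not checked. In CPM, 1 count was 0.203 in replicate 1 and 0.191 in replicate 2. Of the 5 members 4 were detected, which means at least 10 counts in both libraries, or 80% against 16.2% of all listed genes. Of all 2202 listed genes 1448 had 0 counts in both libraries. Reads placed at several loci were counted apart from the genes, so genes with copies are harder to detect than these members.

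Mir335, from Mest, is known from human breast cancer as a suppressor of metastasis. It had 5820 counts in replicate 1 and 7578 in replicate 2, or 1180 and 1449 CPM (1315 ± 190 CPM, SD, n = 2). It stood 66th of all listed genes in replicate 1 and 60th in replicate 2, and supplied 81.8% and 73.0% of the counts of the 5 members in these libraries. Both libraries put it far above every other member.

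Mir298, of the Gnas locus, is known in the mouse for targeting the mRNA of the beta-secretase Bace1. It had 419 counts in replicate 1 and 1672 in replicate 2, or 85.0 and 320 CPM (202 ± 166 CPM, SD, n = 2). The SD is nearly as large as the mean, so the mean describes neither heart. Its rank among listed genes was 158 in replicate 1 and 98 in replicate 2.

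Mir483, from Igf2, is known in human tumours as a miRNA raised together with IGF2. It had 615 counts in replicate 1 and 956 in replicate 2, or 125 and 183 CPM (154 ± 41.1 CPM, SD, n = 2), at ranks 137 and 124. Mir483 was above Mir298 in replicate 1 and below it in replicate 2, so the order of these neighbours differed between the 2 libraries.

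Mir296, the other Gnas locus gene, is known in human endothelial cells for a part in angiogenesis. It had 260 counts in replicate 1 and 162 in replicate 2, or 52.7 and 31.0 CPM (41.9 ± 15.4 CPM, SD, n = 2). It lay below Mir298 and Mir483 in both libraries. Its mean was also below the median of the detected genes, 60.3 CPM.

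Mir675, the miRNA of H19, is known in the mouse placenta for restraining growth and repressing Igf1r. It had 1 count in replicate 1 and 8 in replicate 2, or 0.203 CPM (exact Poisson 95% interval 0.00513 to 1.13) and 1.53 CPM (0.660 to 3.01). A count of 0 would allow 0.608 and 0.574 CPM in these libraries, so the level was within that limit in replicate 1 and a little above it in replicate 2. The ratio of the counts gives a level 7.54-fold lower in replicate 1 with an exact 95% interval of 1.01 to 335, and Mir675 was too low to be among the genes tested. Intervals and limits cover counting error only. In bulk tissue, fewer cells that express a miRNA and less of it per cell cannot be told apart.

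By their means the order was Mir335, Mir298, Mir483, Mir296 and Mir675. Per 100 bases of annotated gene length the order of the means was the same, with Mir335 at 1204 and 1479 CPM per 100 bases and Mir296 at 66.7 and 39.2 in replicates 1 and 2.

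**Figure D2:**
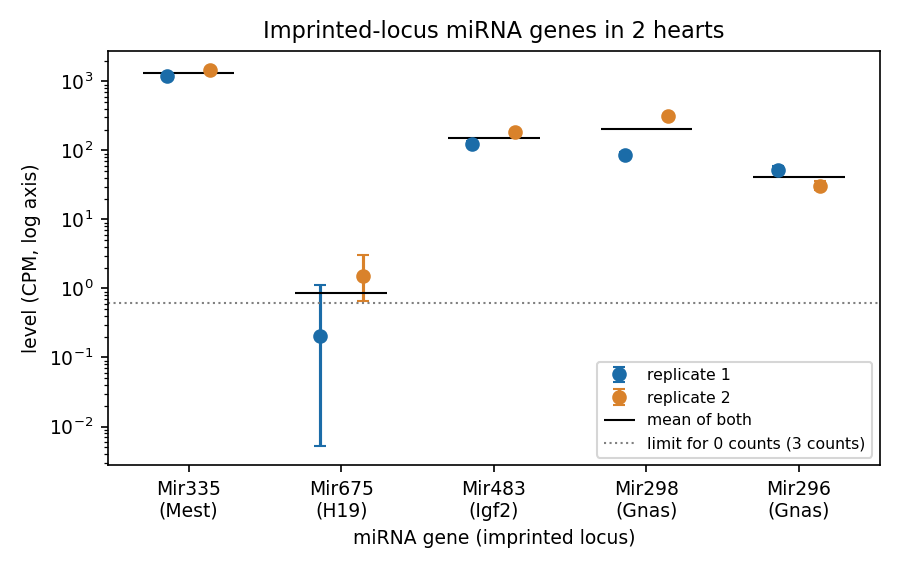
Level in CPM (log axis) of the 5 miRNA genes, with their loci in brackets; blue points are replicate 1 and orange points replicate 2 with exact Poisson 95% intervals, black bars are means of both, and the dotted line is the level that a count of 0 allows in replicate 1 (0.608 CPM). Mir335 lies at 1180 and 1449 CPM, the interval of Mir675 spans the dotted line in replicate 1 and lies above it in replicate 2, and Mir298 shows the widest separation among the detected members.

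Between the hearts, Mir298 differed most among the detected members and Mir296 differed in the other direction. For each gene, the split of its reads between the libraries was tested two-sided against the split of all assigned reads (exact binomial test), with Benjamini-Hochberg adjustment over 356 detected genes. It compares 2 libraries and not conditions, and its p-values cover counting error only. Of the 4 detected members 3 were lower in replicate 1, where the same holds for 32.9% of all detected genes, and 1 was higher, against 30.6%. In either direction 63.5% of detected genes were called, so a call by itself does not set a member apart.

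Mir298 was 3.76-fold lower in replicate 1 (exact 95% interval 3.38 to 4.20; log2 ratio -1.91, adjusted p = 5.51e-160). The SD of the log2 ratio over detected genes was 0.86 and the median absolute value 0.45, and 11 of the 356 genes had a larger absolute ratio than Mir298. Among the 58 other detected genes with a mean level within 2-fold of its own, Mir301 and Mir31 had a larger one.

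Mir296 was 1.70-fold higher in replicate 1 (1.39 to 2.08; log2 ratio 0.77, adjusted p = 1.83e-07, exact test). Of 70 other detected genes of like level, 21 had a larger absolute ratio. This difference exceeds counting error and is within the SD over detected genes.

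Mir483 was 1.47-fold lower in replicate 1 (1.32 to 1.62; log2 ratio -0.55, adjusted p = 2.46e-13, exact test), and Mir335 was 1.23-fold lower (1.19 to 1.27; log2 ratio -0.30, adjusted p = 1.55e-31, exact test). The ratio of Mir335, the member with the most counts, was smaller in size than that of 224 of the 356 detected genes, and that of Mir483 smaller than that of 144.

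**Figure D3:**
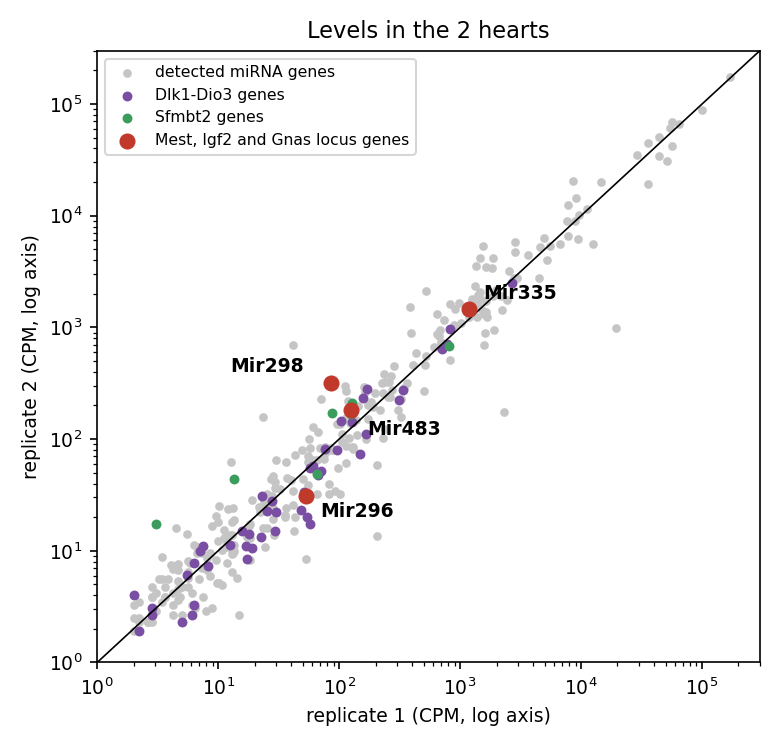
Level in replicate 1 (horizontal) against replicate 2 (vertical), both in CPM on log axes, for 356 detected miRNA genes (grey), with Dlk1-Dio3 genes in purple, Sfmbt2 genes in green and the 4 detected members in red; the line marks equal levels. Mir335 lies close to the line, Mir298 above it at 85.0 and 320 CPM, and Mir296 below it at 52.7 and 31.0 CPM.

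Some markers of other cells differed between the same libraries and others did not. The red cell genes Mir451a and Mir144 together held 21812 CPM in replicate 1 and 1161 CPM in replicate 2. The 5 genes of the smooth muscle and fibroblast list, 4 of them detected and Mir199a-1 at 0, held 31902 and 40630 CPM. The 7 heart muscle genes, 5 of them detected, held 4531 and 6556 CPM. Among them Mir208a, of the Myh6 locus, had 1361 and 3562 CPM (log2 ratio -1.39, called lower in replicate 1), while Mir499, of the Myh7b locus, had 2933 and 2758 CPM (log2 ratio 0.09, called higher). Mir208b, at 191 and 192 CPM, was among the 3 detected genes of this list that were not called. Mir126a and Mir126b, the endothelial genes, held 56393 and 69423 CPM, and the 5 leukocyte genes, 4 detected and Mir142b at 0, held 4788 and 5126 CPM. Within that list Mir142 was called higher in replicate 1, at 503 and 271 CPM. Mir150, at 1416 and 1968 CPM, and Mir223, at 102 and 136 CPM, were called lower. Mir155, at 2767 and 2751 CPM, was not called. The 6 neuron genes held 2.03 and 1.15 CPM with none detected, and Mir122, of liver, was at 25.6 and 16.1 CPM. Genes numbered as copies, such as Mir1a-1 and Mir1a-2, can share mature sequences. Reads placed at several loci were counted apart from the genes, so such genes can read low or 0 whatever their expression. This concerns the Mir1a, Mir133a and Mir199a genes and all 6 neuron genes. The sums of the lists that hold them are therefore no measure of those cell types. With Mir451a and Mir144 left out of the totals, the log2 ratios were -1.88 for Mir298, 0.80 for Mir296, -0.52 for Mir483 and -0.27 for Mir335, all 4 still called. Leaving them out changes only the totals and moves every log2 ratio by the same amount, so it cannot show the part of red cells. The part of red cells and of the other cell types in these differences was not tested.

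Mir298 and Mir296, cut from hairpins 378 bases apart, were therefore unequal within each heart and differently so. Their hairpins are shown because the comparison turns on them, with both mature arms in capitals.
Mir298 (chr2:174267504-174267585, minus strand): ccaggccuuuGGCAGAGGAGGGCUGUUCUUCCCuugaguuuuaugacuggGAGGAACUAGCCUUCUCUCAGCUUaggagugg
Mir296 (chr2:174267047-174267125, minus strand): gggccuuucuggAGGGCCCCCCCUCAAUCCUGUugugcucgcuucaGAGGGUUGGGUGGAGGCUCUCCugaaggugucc

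There were 0.621 counts of Mir296 for each count of Mir298 in replicate 1 (exact 95% interval 0.530 to 0.726) and 0.0969 in replicate 2 (0.0819 to 0.114). Put as a share, Mir296 made up 38.3% of the pair in replicate 1 (34.6 to 42.1%) and 8.83% in replicate 2 (7.57 to 10.2%). These intervals are far apart, and the odds of Mir296 over Mir298 were 6.40 times higher in replicate 1 (exact 95% interval 5.09 to 8.06). The sum of both genes was 138 CPM in replicate 1 and 351 CPM in replicate 2.

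This pair was set beside other neighbours after its values had been seen. Over 103 pairs of adjacent detected miRNA genes within 10 kb on 1 strand, the median absolute gap between the log2 ratios of the pair was 0.53. The gap of Mir296 and Mir298 was 2.68, and none of the other pairs had a larger one. In 18 pairs, or 17.5%, the 2 genes were called in opposite directions, as here. The gap was also the largest of the 63 pairs within 1 kb and of the 66 pairs in which both genes averaged 100 counts or more. With 1 library for each heart, animal and preparation cannot be told apart.

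**Figure D4:**
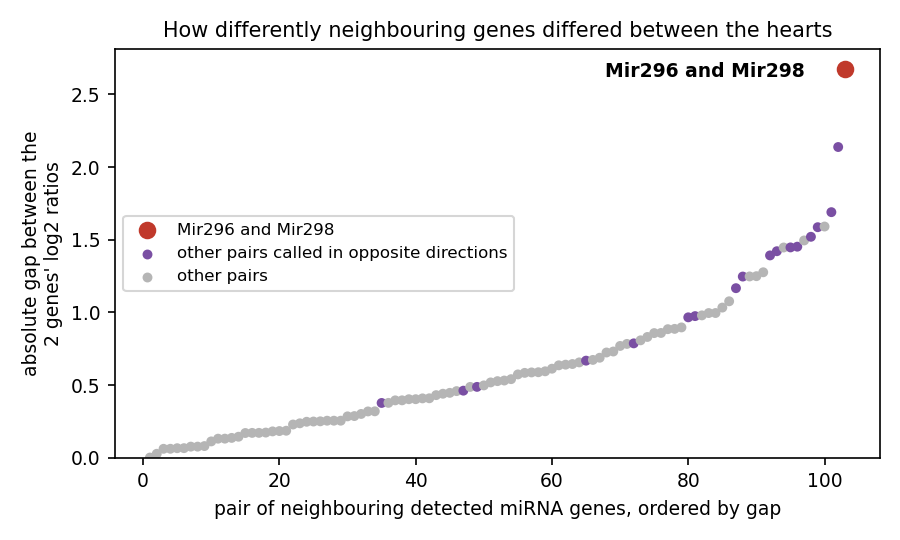
Absolute gap between the log2 ratios (replicate 1 over replicate 2) of the 2 genes of each of 103 neighbouring pairs of detected miRNA genes, ordered by size; purple points are other pairs called in opposite directions and grey points the remaining pairs. The pair of Mir296 and Mir298, in red, has a gap of 2.68 and lies above all others.

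Mir675 and Mir483 lie in 1 imprinted domain, where Igf2 and H19 are expressed from opposite parental copies. In replicate 1 there were 615 counts of Mir483 for 1 count of Mir675 (exact 95% interval of the ratio 110 to 24330), and in replicate 2 there were 119.5 for each (60.4 to 278). Both intervals lie far above equal counts, and they overlap each other, so a change of the ratio between the hearts was not detectable at this depth. The ratio compares small RNA reads at the miRNA genes and not the levels of the H19 and Igf2 transcripts, which are not analysed here. Whether any read at Mir675 came from a fragment of the H19 exon around it was not tested. Adapter ligation favours some miRNA ends over others, which enters any ratio between different miRNAs.

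The miRNA clusters at 2 other imprinted loci were set beside these genes by annotation. Of the 67 miRNA genes between Dlk1 and Dio3, a region where the maternal copy supplies the miRNAs, 46 were detected (68.7%). Of the 119 within Sfmbt2, a paternally expressed gene with a rodent-specific array of miRNAs, 7 were detected (5.88%). The 5 members held 0.144% of assigned reads in replicate 1 and 0.198% in replicate 2, the Dlk1-Dio3 genes 0.750% and 0.703%, and the Sfmbt2 genes 0.124% and 0.135%.

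Mir335 lay above all but 1 of the Dlk1-Dio3 genes. That gene was Mir127, at 2705 and 2503 CPM, while Mir411 at 823 and 960 CPM and Mir541 at 773 and 708 CPM came next. It also lay above every Sfmbt2 gene. There Mir467d led with 817 and 685 CPM, and Mir669c had 128 and 211 CPM and Mir467e 126 and 168 CPM, around the level of Mir483. Many Sfmbt2 genes are near-copies of one another, and reads placed at several loci were counted apart from the genes, so their counts are uncertain.

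Between the hearts, 23 Dlk1-Dio3 genes were higher in replicate 1, 5 were lower and 18 were not called, with a median log2 ratio of 0.18. Of the Sfmbt2 genes 2 were higher and 5 lower, with a median of -0.72. Over all 356 detected genes 30.6% were higher and 32.9% lower, or 63.5% in either direction. The 4 detected members had a median of -0.42 and the 356 detected genes one of -0.02. No test was made between these lists.

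**Figure D5:**
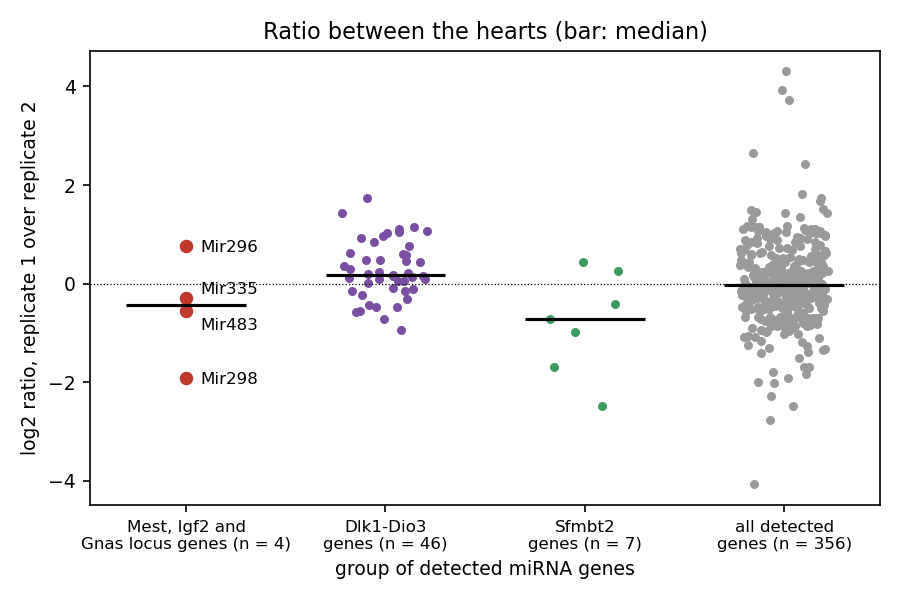
Log2 ratio of the level in replicate 1 over replicate 2 for the 4 detected members (red, named), the detected Dlk1-Dio3 genes (purple), the detected Sfmbt2 genes (green) and all 356 detected genes (grey), with a bar at each median. The members spread from -1.91 for Mir298 to 0.77 for Mir296, on both sides of 0.

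The detected genes closest in level over both libraries were taken as a description, by Euclidean distance of log2 CPM over 2 samples. Mirlet7c-2 (1259 and 1614 CPM), Mir484 (1180 and 1245 CPM) and Mir98 (1394 and 1619 CPM) were nearest to Mir335. Mir501 (112 and 297 CPM), Mir125b-2 (114 and 271 CPM) and Mir222 (70.4 and 227 CPM) were nearest to Mir298. Mirlet7c-2 and Mir125b-2 are numbered as copies and can lack reads placed at several loci, so their values can be too low. For Mir483 the nearest were Mir467e, Mir669c and Mir3102 (144 and 196 CPM). For Mir296 they were Mir668 (50.9 and 33.7 CPM), which is a Dlk1-Dio3 gene, Mir7b (65.5 and 32.1 CPM) and Mir215 (55.2 and 38.8 CPM).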

How the data were processed

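The authors deposited whole-number read counts per miRNA gene, unstranded and for each strand, and the text accompanying the files names mm10 and GENCODE M21. Neither aligner nor counter is named (not given in the sources used here). The 2 libraries held 13210462 and 14363882 reads, of which 37.3% and 36.4% were assigned to a gene on its strand. Reads at several loci (41.6% and 37.4%), unmapped reads and reads outside genes were left out of totals. mm10 is a C57BL/6J genome, so CAST reads were matched to C57BL/6J sequence.

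CPM, exact binomial tests and Poisson and Clopper-Pearson intervals at 95% came from SciPy 1.17.1, called at an adjusted p below 0.05. Log2 ratios add 0.5 counts. The tests were tried on simulated data. Apart from set fold changes these held counting error only, so that trial does not cover other variation between libraries. With 1 group, edgeR's quasi-likelihood test has no contrast. edgeR 4.0.16 (TMM) and DESeq2 1.42.0 gave other scalings, and RNAfold 2.7.2 the folding energies. Members, lists and tests were chosen with earlier results of these data known. Genes named are the 5 members, the 3 nearest in level to each detected member, the top 3 of both clusters, miRNA genes within 10 kb or with a member's seed, and cell type markers. Mir301, Mir31 and the pairs under other observations were named after their values were seen.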

Additional observations from a re-analysis of the deposited data

How the results depend on the processing

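Among 91 values recomputed with both libraries, none reversed or lost a call, and 7 moved by more than the SD between libraries or, for counts of genes, by over 1.5 times. The SD is a wide measure for Mir298 and Mir675, whose libraries are far apart. The 18 values without a library say nothing about stability where they are levels or ratios, since with 2 libraries a mean cannot move by its SD. The calls of the 4 detected members held under TMM, DESeq2 size factors, unstranded counts and a filter of 1 count in total. Log2 ratios were between -1.92 and -1.87 for Mir298 and between 0.76 and 0.81 for Mir296. Unstranded counts of these genes equalled those on the strand except for Mir335 in replicate 2 (7579 against 7578). These settings thus changed the totals or the number of genes adjusted for, which is a weak trial of the calls. Per 1000000 unstranded counts Mir335 was at 1810, Mir298 at 279, Mir483 at 212, Mir296 at 57.6 and Mir675 at 1.19, with smaller totals of 3588090 and 3791591 reads in replicates 1 and 2, where 1342888 and 1438359 reads are tallied as ambiguous. Per 1000000 of all reads the levels were 484, 74.1, 56.6, 15.5 and 0.316 in the same order of genes. The number of members in the same place of the order ranged from 3 to 5 when replicate 2 or replicate 1 was left out, since Mir298 and Mir483 change places. Without replicate 2 or without replicate 1, Mir298 was at 85.0 or 320 CPM, Mir675 at 0.203 or 1.53 CPM, the ratio of Mir296 to Mir298 at 0.621 or 0.0969, and that of Mir675 to Mir483 at 0.00163 or 0.00837. At a minimum of 100 counts 25 Dlk1-Dio3 genes were detected. With 1 group of 2 libraries, leaving out a library ends the comparison between the hearts. Among the members, depth limits Mir675 most. No paired analysis was possible because there is only 1 group.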

Other observations

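Neighbouring pairs with the next largest gaps between their log2 ratios, all chosen after their values were seen, were Mir669l and Mir467c in Sfmbt2 (2.14) and Mir23a and Mir27a (1.69). In both pairs the 2 genes were called in opposite directions between the hearts. Mir669l had 13.6 and 44.2 CPM in replicates 1 and 2, and Mir467c had 66.1 and 48.6 CPM. On the opposite strand, the 5 members had 0 counts in replicate 1 and 1 in replicate 2, from Mir335, where up to 3 counts cannot be told from 0.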
